A study of Mus musculus with 2 samples.

Results

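The loci described here are 130 mouse miRNA genes whose symbols carry a number from 1800 up to, but not including, 4000, out of 1973 miRNA loci with a count in midbrain small RNA libraries. The rule that picks them reads only the symbol and position in the GENCODE M21 annotation and no measured value, and 6 further loci with such a number were left out because they lie in the imprinted Dlk1-Dio3 interval of chromosome 12 or are Mir1912. Another 21 genes of this number range in M21 were not analysed here. Small RNA under 30 nt was sequenced from dissected midbrain of mouse embryos of strain B6NCrl, aged 14.5 days. The series held 1 group of 2 replicates, each described as 1 midbrain of 1 pup and collected on different days, which cannot be told apart from the replicates; the same donor identifier is given for both, and the sex is given as pooled male and female. No treatment or genetic change is given and there is no contrast between conditions, so levels, hosts and detection were described. Sense reads, those on a locus's own strand, totalled 7302633 in replicate 1 and 3966727 in replicate 2. The spread between the replicates may be technical. The neural miRNAs Mir137 (12716 CPM) and Mir9-3 (536 CPM) were both detected, but they were picked after their values were seen and so do not test the tissue. Other loci went the other way. The neuronal Mir124a-1 and Mir124a-2 had 6.66 and 11.3 CPM, and the vessel miRNA Mir126a had 22524 CPM. Those Mir124a loci share sequence, and reads mapping to several places were not counted, so their levels can be undercounts.

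A miRNA is cut from a hairpin precursor, usually first by Drosha in the nucleus and then by Dicer in the cytoplasm, and the short product guides Argonaute to target transcripts through bases 2 to 8, the seed. miRNA numbers were given in order of discovery, so that high numbers mostly name loci first seen by deep sequencing, many of them weakly conserved or in introns. One known class among them, the mirtrons, bypasses Drosha: splicing releases a short intron that folds as the hairpin. In tailed mirtrons the hairpin reaches a single end of the intron and the rest is trimmed. Some entries of this age lie in other small RNA genes or in repeats.

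Sequences are shown 5′ to 3′ for the loci on which the results turn. The first set gives mature miRNAs of leading loci from RefSeq (GRCm38.p6), with the seed in capitals. Where another detected miRNA of the table has the same seed, its sequence follows on the next line. The counts do not separate the arms of a hairpin, so a sequence does not show which arm was read.
miR-3099-5p: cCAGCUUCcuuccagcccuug
miR-3099-3p: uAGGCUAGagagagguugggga
miR-3074-5p: gUUCCUGCugaacugagccagu
miR-3059-5p: uUUCCUCUcugccccauagggu
miR-3061-5p: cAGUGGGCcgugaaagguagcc
miR-3475-5p: aAAUCAUGuacccccacagagg
miR-96-3p: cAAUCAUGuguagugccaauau
miR-1981-5p: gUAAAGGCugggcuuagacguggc
miR-3102-5p: gUGAGUGGccaggguggggcug
miR-702-5p: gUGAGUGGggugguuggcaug
miR-1983: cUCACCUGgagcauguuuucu
miR-412-3p: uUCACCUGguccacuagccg
miR-1947-3p: gCACUGAGcuagcucucccucc
miR-674-5p: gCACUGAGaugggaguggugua

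The second set gives whole hairpins as GENCODE M21 transcripts. In the first 4 the hairpin is a complete annotated intron, and the capitals mark the GT at its 5′ splice site and the AG at its 3′ splice site. In the last, Mir1983, the capitals mark the mature miRNA.
Mir1981: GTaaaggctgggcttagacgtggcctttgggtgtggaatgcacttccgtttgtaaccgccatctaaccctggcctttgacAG
Mir3102: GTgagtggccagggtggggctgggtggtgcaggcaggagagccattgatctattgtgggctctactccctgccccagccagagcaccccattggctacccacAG
Mir1982: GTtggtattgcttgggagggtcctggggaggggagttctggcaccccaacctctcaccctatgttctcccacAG
Mir3547: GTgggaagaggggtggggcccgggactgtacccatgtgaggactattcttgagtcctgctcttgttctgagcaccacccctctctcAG
Mir1983: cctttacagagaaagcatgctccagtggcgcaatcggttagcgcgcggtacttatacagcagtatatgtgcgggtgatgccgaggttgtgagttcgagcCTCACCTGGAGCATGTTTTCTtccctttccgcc

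Of the 130 later-named loci, 38 (29.2%) had at least 10 reads on the annotated strand in each library and are called detected here; over all 1973 loci the share was 20.1%. Another 43 had some reads but fewer, and 49 had none. The 130 loci together took 0.458% of the sense reads of replicate 1 (exact Clopper-Pearson 95% interval 0.454 to 0.463) and 0.552% of those of replicate 2 (0.545 to 0.560), a mean of 0.505% ± 0.0664 (SD, n = 2). Mir1983 alone supplied 71.3% of these reads in replicate 1 and 71.1% in replicate 2. Without it the later-named loci held 0.146% ± 0.0196 of the sense reads. Levels are given as CPM, the sense count scaled by the library's sense total and not by hairpin length. Detected later-named loci had a median of 11.6 CPM, against 120.0 CPM over all 397 detected loci. Only Mir1983 stood among the 100 most abundant loci of the table, and 3 stood among the first 200.

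**Figure D1:**
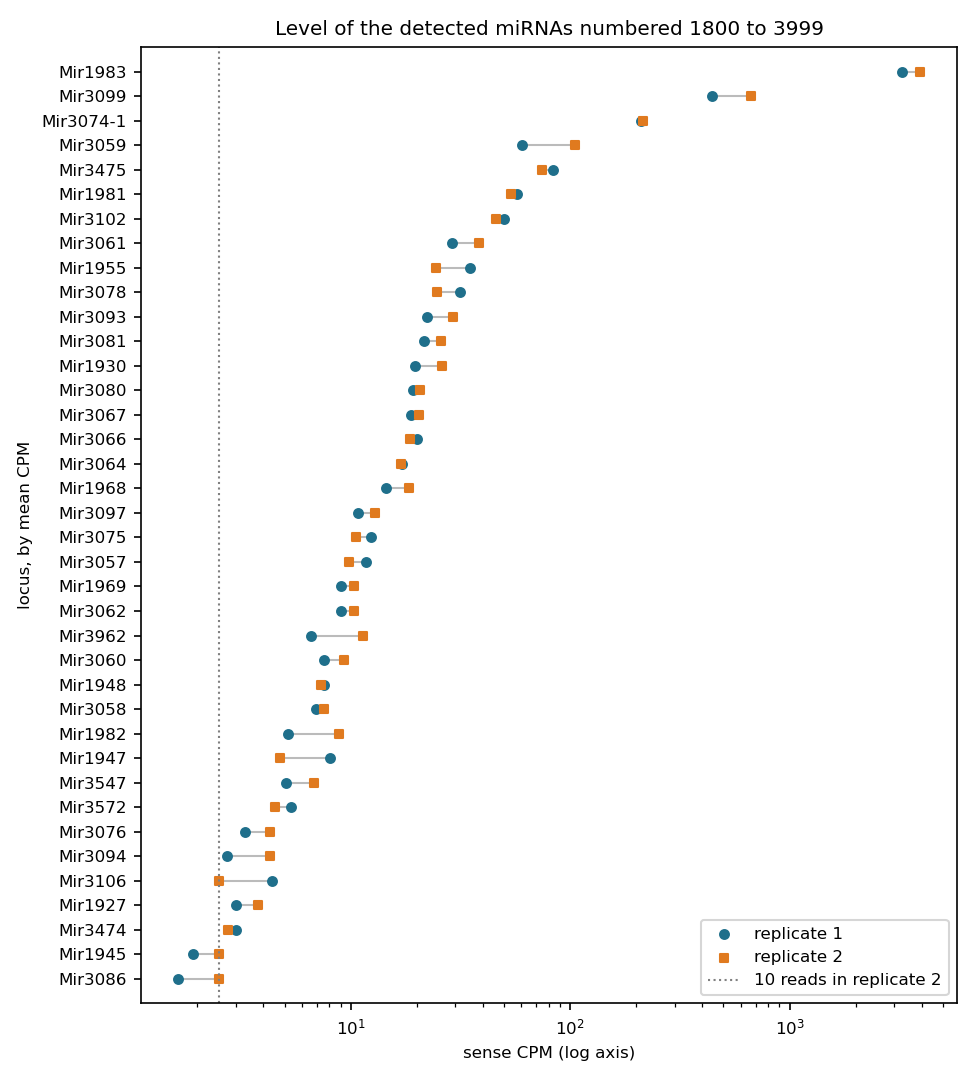
Sense CPM of the 38 detected later-named loci (log x axis), ordered by mean CPM; circles are replicate 1, squares replicate 2, and the dotted line is the level of 10 reads in replicate 2. Mir1983, Mir3099 and Mir3074-1 stand above 100 CPM in both libraries, and 17 loci have a mean under 10 CPM.

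Mir1983 was the highest of the set, with 23864 reads (3268 CPM) in replicate 1 and 15586 reads (3929 CPM) in replicate 2, a mean of 3599 ± 468 CPM (SD, n = 2) and place 57 in the whole table. It exceeded the next locus 6.49-fold. The locus (ENSMUSG00000088148.1) lies on the minus strand of chromosome 13 from 21896918 to 21897049 in assembly mm10, outside any other GENCODE gene on its strand. RefSeq places a tRNA gene there, n-TItat14, for an isoleucine tRNA, from 21896938 to 21897031, so that all 94 nt of it lie inside the annotated hairpin. Of the 1894 loci with a position, this was the single one that overlaps a RefSeq tRNA gene. Of the 21 nt of mature miR-1983, 13 are the last bases of the tRNA gene and 8 lie beyond it. That stretch holds a run of 4 T, the kind of signal at which RNA polymerase III stops. The letters GTTCGANNC, the core of the tRNA promoter element called the B box, were searched on both strands and start at base 92 of the Mir1983 hairpin; 2.32% of all hairpins hold them.

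Mir1983 was the 1 detected locus among 11 members of a list of suspected pieces of other RNAs, and 9 of these 11 had no read. Over all 1973 loci 20.1% were detected. The list was written with earlier results of these data known. On it, Mir3470a, Mir3470b, Mir3473a and Mir3473b share stretches with other hairpins, so reads there can be undercounted. None of the 130 loci overlaps a snoRNA, scaRNA, snRNA, rRNA or similar gene in GENCODE. Whether the reads at Mir1983 came from a Dicer product or from the tRNA precursor was not tested.

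Mir3099 was the highest of the later-named loci that sit inside a gene, with 3235 reads (443 CPM) in replicate 1 and 2645 reads (667 CPM) in replicate 2, a mean of 555 ± 158 CPM. It lies in an intron of Usp29, an imprinted gene expressed from the paternal chromosome, at plus-strand bases 6803587 to 6803670 of chromosome 7. Replicate 2 was the higher library. No other miRNA locus lies within 10 kb on its strand, and neither of its mature seeds is shared with another miRNA of the reference table.

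Mir3074-1 had 1532 reads (209.8 CPM) in replicate 1 and 853 reads (215 CPM) in replicate 2, a mean of 212 ± 3.71 CPM, so that the libraries nearly coincided. It lies in an intron of the DNA repair gene Fancc on the minus strand of chromosome 13, from 63301199 to 63301283, directly opposite Mir24-1 of the miR-23b/27b/24 cluster. Its opposite strand held 85 reads in replicate 1 and 58 in replicate 2, and sense reads made up 94.7% and 93.6%. The count of Mir24-1 itself was not analysed here. At the 129 other later-named loci the opposite strand held 3 reads in replicate 1 and 8 in replicate 2 in all. The Mir3074-1 hairpin shares 30 nt with the reverse complement of the Mir24-2 hairpin, and miR-3074-5p has a second gene, Mir3074-2. Reads that mapped to several places were not counted, so both the level of Mir3074-1 and the count on its opposite strand are uncertain. The sense percentages therefore do not compare the output of the strands.

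Next in order were Mir3059 and Mir3475, whose order was not resolved, meaning that their means differed by less than the larger of their SDs. Mir3059, in an intron of the glycosyltransferase gene Mgat4c, had 442 reads (60.5 CPM) and 417 reads (105 CPM) in replicates 1 and 2, with the higher level in replicate 2. Mir3475, on the X chromosome outside any other gene, had 612 reads (83.8 CPM) and 297 reads (74.9 CPM), with the higher level in replicate 1. Their means were 82.8 ± 31.5 and 79.3 ± 6.32 CPM. miR-3475-5p has the seed of miR-96-3p, the minor arm of a sensory-cluster miRNA whose locus reached 401 ± 1.75 CPM.

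Mir1981 and Mir3102 followed, and both are mirtrons by position. Of the 130 loci, 18 had a hairpin end within 10 nt of an annotated intron end on the same strand: 5 at both ends and 13 at 1 end. All 5 of the first kind were detected. Among all other loci, 24 lay at both ends of an intron and 5 of them (20.8%) were detected. The later-named group of 5 loci is too small for these shares to be compared. In 4 of the 5 the hairpin begins and ends on the very bases of the intron, and these are the sequences with GT and AG in capitals above. The fifth, Mir3062 in the purine synthesis gene Pfas, runs 6 nt past the 5′ and 2 nt past the 3′ end of an intron of 97 nt.

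Mir1981 had 418 reads (57.2 CPM) in replicate 1 and 213 reads (53.7 CPM) in replicate 2, a mean of 55.5 ± 2.51 CPM. It fills an intron of 82 nt in Marc2, which encodes a mitochondrial reductase, on chromosome 1 from 184822407 to 184822488. Mir3102 had 365 reads (50.0 CPM) and 183 reads (46.1 CPM), a mean of 48.1 ± 2.72 CPM. It fills an intron of 104 nt in Arhgef17 on chromosome 7, from 100882306 to 100882409. In both mirtrons the libraries lay close together, and the order of the 2 loci was resolved by more than either SD. Mir3102 has the seed of miR-702-5p on its 5p arm, whose locus Mir702 reached 99.2 ± 49.3 CPM.

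The 3 remaining loci at both intron ends were lower. Mir3062 had 66 reads (9.04 CPM) in replicate 1 and 41 reads (10.3 CPM) in replicate 2. Mir1982, in an intron of 74 nt of the antizyme gene Oaz1, had 38 reads (5.20 CPM) and 35 reads (8.82 CPM). Mir3547, in an intron of 88 nt of the vesicle traffic gene Baiap3, had 37 reads (5.07 CPM) and 27 reads (6.81 CPM). Mir1982 and Mir3547 were not resolved from each other.

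Of the 13 loci at 1 intron end, 12 lay at the 3′ splice site, the position of a 5′-tailed mirtron. The other, Mir3572 in Cnot3, begins 9 nt inside the 5′ splice site of an intron of 80 nt. It runs 15 nt past the 3′ splice site, so it leaves no tail there. Detection reached 6 of the 13, against 28 of 189 other loci of this kind (14.8%). Mir3064, at the end of an intron of the RNA helicase gene Ddx5, was the highest with 125 reads (17.1 CPM) and 67 reads (16.9 CPM) in replicates 1 and 2. Mir3097, in Rgs12, a regulator of G protein signalling, had 79 reads (10.8 CPM) and 51 reads (12.9 CPM). Mir3572, Mir3076 in the transketolase gene Tkt, Mir3094 in Nfx1 and Mir3474 in Actr5 lay between 2.89 ± 0.169 and 4.94 ± 0.568 CPM. Of the 7 that were not detected, 5 had a few reads, among them Mir3104 in the neuronal kinase gene Brsk2 with 17 and 4. The other two, Mir1963 in Ryr1, the calcium channel of skeletal muscle, and Mir3077 in Sap18, had none.

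**Figure D2:**
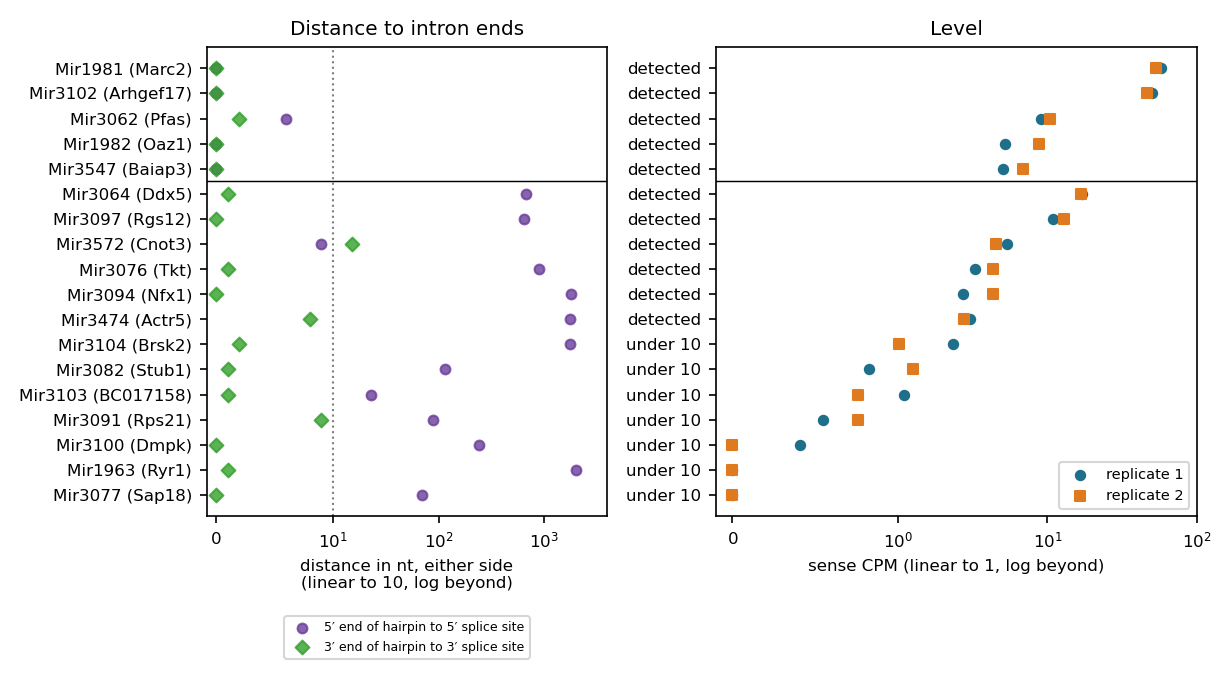
The 18 later-named loci with a hairpin end within 10 nt (dotted line) of an intron end, with the host gene in parentheses; the left panel gives the distance of each hairpin end from its splice site in nt, the right panel sense CPM by replicate, and the horizontal line parts the 5 loci at both ends from the 13 at 1 end. All 5 above the line had at least 10 reads in each library, as did 6 of the 13 below it.

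Away from intron ends, 27 of 112 later-named loci (24.1%) were detected, a share close to that of the other loci there (326 of 1551). Their leading members after Mir3475 were Mir3061, Mir1955, Mir3078 and Mir3093, whose order was not resolved at any step. Mir3061, which lies in a UTR exon of a transcript of Ppp2ca, the catalytic subunit of protein phosphatase 2A, had 212 reads (29.0 CPM) and 153 reads (38.6 CPM). Mir1955, in an intron of Phf21a, which encodes a chromatin reader of the LSD1 complex, had 256 reads (35.1 CPM) and 97 reads (24.5 CPM). The first was higher in replicate 2 and the second in replicate 1.

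A pair of loci lies beside neural miRNA genes. Mir3078 sits in an exon of Mir124a-1hg, the host transcript of the neuronal miRNA Mir124a-1, with a gap of 443 nt between the hairpins. It had 231 reads (31.6 CPM) in replicate 1 and 98 reads (24.7 CPM) in replicate 2, 4.20 and 4.26 times the level of Mir124a-1 in the same library. Mir124a-1 shares sequence with Mir124a-2 and Mir124a-3 and Mir3078 has no copy, so this ratio does not compare their transcription. Mir3093 lies in an intron of the noncoding gene Gm3764, with 340 nt between it and Mir9-1, a miRNA gene of neural progenitors that was not analysed here. It had 163 reads (22.3 CPM) and 116 reads (29.2 CPM). No other detected later-named locus had a detected miRNA neighbour within 10 kb on its strand.

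Mir3081, Mir1930, Mir3080, Mir3067, Mir3066 and Mir1968 formed a middle tier with means between 16.5 and 23.7 CPM, and Mir3064 lay among them. Mir3081, in an intron of Boc, a co-receptor for Hedgehog ligands, had 158 reads (21.6 CPM) and 102 reads (25.7 CPM). Mir3080, in an intron of the transcriptional regulator gene Tcf20, had 141 reads (19.3 CPM) and 82 reads (20.7 CPM). The hosts of the others were Ube2g2, a ubiquitin-conjugating enzyme, for Mir1930, the secreted protein gene Smoc1 for Mir3067, Nol10 for Mir3066 and Grtp1 for Mir1968. Over the 37 steps of the order of all 38 detected loci, 27 were smaller than the larger SD of the pair.

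The other detected loci lay between 2.08 and 11.5 CPM. Mir3075 in Zmiz1 and Mir3057 in Apba3 were near 11 CPM, at 11.5 ± 1.23 and 10.8 ± 1.38 CPM. Mir1969, outside any gene, had the same reads as Mir3062, 66 and 41. Mir3060 in Rnf215, Mir1948 in Ttc39c, Mir3058 in Nudt4 and Mir1947 in Lmln lay between 6.43 ± 2.33 and 8.43 ± 1.27 CPM. miR-1947-3p has the seed of miR-674-5p, whose locus stood far higher, at 1018 ± 30.8 CPM. Mir3106, in an intron of Csmd1, which encodes a large membrane protein,, had 32 and 10 reads, and Mir1927, in an intron of Rabgap1l, 22 and 15.

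Mir3962 has a mature sequence that is nearly a piece of let-7g. The lines below, from RefSeq, show in capitals the 17 nt that both hold.
miR-3962: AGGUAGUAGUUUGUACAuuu
let-7g-5p: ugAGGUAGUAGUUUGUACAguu
Mir3962, on chromosome 1 outside any other gene, had 48 reads (6.57 CPM) in replicate 1 and 45 reads (11.3 CPM) in replicate 2. These were 0.0118% and 0.0201% of the level of Mirlet7g. No detected later-named locus other than Mir3962 and Mir3074-1 shared more than 15 nt with a hairpin elsewhere. How many reads of Mir3962 belong to let-7g molecules was not tested.

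The threshold of detection fell within a run of similar values. Just inside it were Mir3086 in Hspa12a, with 12 and 10 reads (2.08 ± 0.621 CPM), and Mir1945, outside any gene, with 14 and 10 reads (2.22 ± 0.427 CPM). Just outside were Mir1934 with 23 and 6 reads, Mir1929 in the autophagy gene Atg5 with 21 and 7, Mir1964 with 16 and 9, and Mir3105 in the synaptic scaffold gene Shank2 with 12 and 9. In 11 loci the 10 reads were reached in a single library, which was the deeper replicate 1 each time: these 4, Mir3108, Mir3104, Mir1943, Mir1933, Mir3101, Mir2137 and Mir3079. One read equalled 0.137 CPM in replicate 1 against 0.252 CPM in replicate 2. For a locus without a read, a count of 0 allows a level up to that of 3 reads, which was 0.411 CPM for replicate 1 and 0.756 CPM for replicate 2; these floors and the intervals cover counting error only.

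The detected share differed between number ranges, which were set after the files were seen. Of 46 loci numbered from 3000 to below 3200, 22 (47.8%) were detected. Of 50 numbered from 1900 to below 2000, 11 (22%) were, close to the 20.1% of all loci. Among 24 numbered from 3200 to below 4000, 5 were detected. This range holds the 12 loci of the Mir3470 to Mir3473 families described below, 11 of them with a copy and none detected. Number and copies were not separated here. None of 6 numbered from 1800 to below 1900 and none of 4 from 2000 to below 3000 reached 10 reads in both libraries. Such small groups cannot be told apart from the 20.1% of all loci.

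In the whole table, 86 of 929 loci (9.26%) with a near-identical copy, an exact stretch of 20 nt in a miRNA hairpin elsewhere, were detected. There were 20 of these among the 130, and Mir3074-1 was the single one detected, a share near that of all loci with a copy, while 15 had no read. Of the 110 without a copy 37 (33.6%) were detected, against 32.2% of the 965 loci of the table with a position and no copy, again a like share. Copies were searched only in annotated miRNA hairpins. Mir1983 therefore counts as without a copy although other tRNA genes were not searched, and any reads it shares with them would be missing from its level. The repeat-like Mir3470 to Mir3473 families made up 12 loci, 11 of them with a copy. None was detected, 10 had no read and the highest count in a library was 5, at Mir3473d. Because reads mapping to several places were tallied apart (36.2% of replicate 1, 36.9% of replicate 2), a low level and a loss of shared reads cannot be told apart there.

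Hosts were mainly protein-coding genes. Of the 130 loci, 87 (66.9%) lay within a protein-coding gene on their strand, against 45.6% of the 1894 loci with a position. Among the 38 detected loci 31 (81.6%) did, against 51.9% of all detected loci. By place, 24 of the detected loci were intronic, 5 lay in exons of noncoding transcripts of a protein-coding gene, among them the mirtrons Mir3102 and Mir1982, 2 in UTR exons, 2 in noncoding genes and 5 outside any gene. Those 5 were Mir1983, Mir3475, Mir1969, Mir3962 and Mir1945. None of the hosts was on short lists of 22 neuronal, 8 vessel or blood, 8 mesenchymal and 4 ciliated cell genes. The lists are too short to show in which cell types the hosts are expressed. Host transcripts were not measured.

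**Figure D3:**
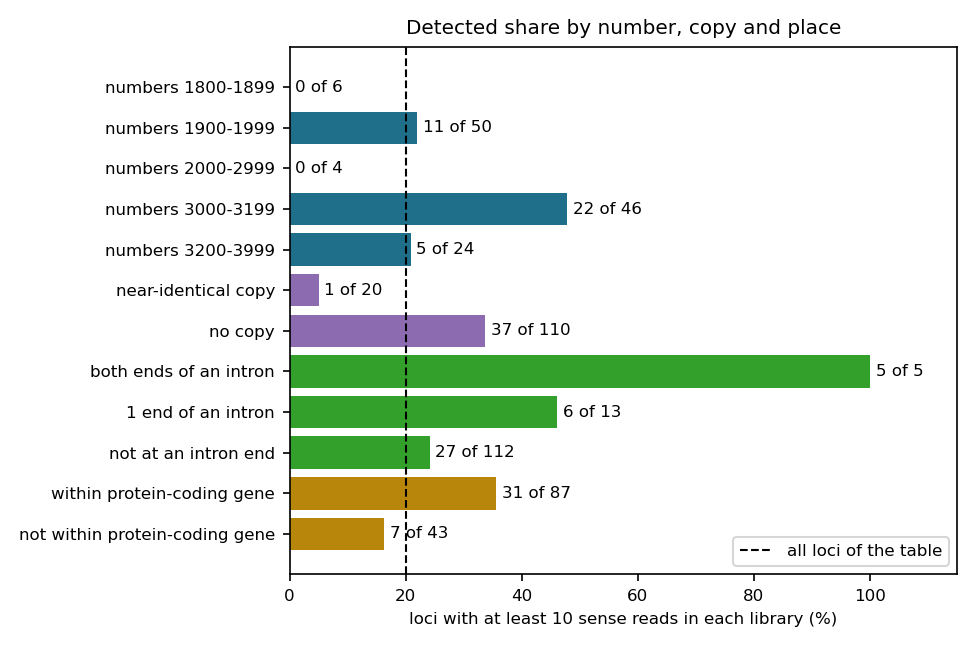
Percent of later-named loci with at least 10 sense reads in each library, by number range, near-identical copy, place at an intron end, and place within a protein-coding gene; labels give detected of all loci in each group and the dashed line is the 20.1% of all 1973 loci. Loci at both intron ends (5 of 5) and loci numbered from 3000 to below 3200 (22 of 46) lie right of that line. The group of 5 is too small for its share to be compared with the line. Loci with a copy (1 of 20) lie to the left, as do loci with a copy in the whole table (9.26%).

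Hairpins of detected and undetected later-named loci had like composition and folding. The median GC content was 53.7% for the 38 detected and 52.7% for the 92 undetected loci. The median folding energy was -0.449 and -0.443 kcal/mol per nt, with ranges of -0.723 to -0.323 and -0.773 to -0.273. The most stable detected hairpin was that of Mir3086, one of the lowest in reads. Detected hairpins at intron ends had a median of 74.0 nt and the other detected ones 85.0 nt. RefSeq held a mature sequence for 34 of the 38 detected loci, 61 sequences with 61 different seeds. A seed shared with another miRNA of the reference table was found at 11 loci, and at 4, Mir1983, Mir3475, Mir3102 and Mir1947, the other miRNA was detected too.

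The libraries differed at 8 of the 38 detected later-named loci. An exact two-sided binomial test after TMM scaling, with Benjamini-Hochberg adjustment over 397 loci, passed at 53.9% of all detected loci. It compares these 2 libraries, not conditions, and allows for counting error only. The test passes more easily at high counts. Detected later-named loci had a median of 11.6 CPM against 120.0 CPM over all detected loci, so the 2 shares cannot be compared directly. Mir3059 (log2 ratio of replicate 2 to replicate 1 0.70, adjusted p from the exact binomial test 5.83e-12), Mir3962 (0.69), Mir3099 (0.50) and Mir1983 (0.17) were higher in replicate 2. Mir1947 (-0.85), Mir1955 (-0.61), Mir3078 (-0.45) and Mir3475 (-0.26) were lower there. With plain totals 7 passed, 6 higher and 1 lower, so the split between directions depended on the scaling. None of the 38 detected later-named loci differed by more than 2-fold, against 4.28% of all detected loci. With so few loci these shares cannot be told apart. The read minimum in each library also keeps uneven low counts out, such as Mir2137 with 13 reads in replicate 1 and 2 in replicate 2. Of the 38, 32 stayed within 1.5-fold, a share like that of all detected loci (331 of 397).

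A list of 9 miRNAs was chosen for vessel, red cell, myeloid, mesenchymal and ciliated cells. The 8 detected were all lower in replicate 2, with log2 ratios from -3.21 to -0.31, and the ninth, Mir199a-2, had 54 and 3 reads. The summed level of the 9 was 34618 CPM in replicate 1 and 22762 CPM in replicate 2, mostly Mir126a (27037 and 18011 CPM). Other miRNAs of these cell types were left out, so the shared direction covers this list only. The part of the 9 in the differences at later-named loci was not tested.

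**Figure D4:**
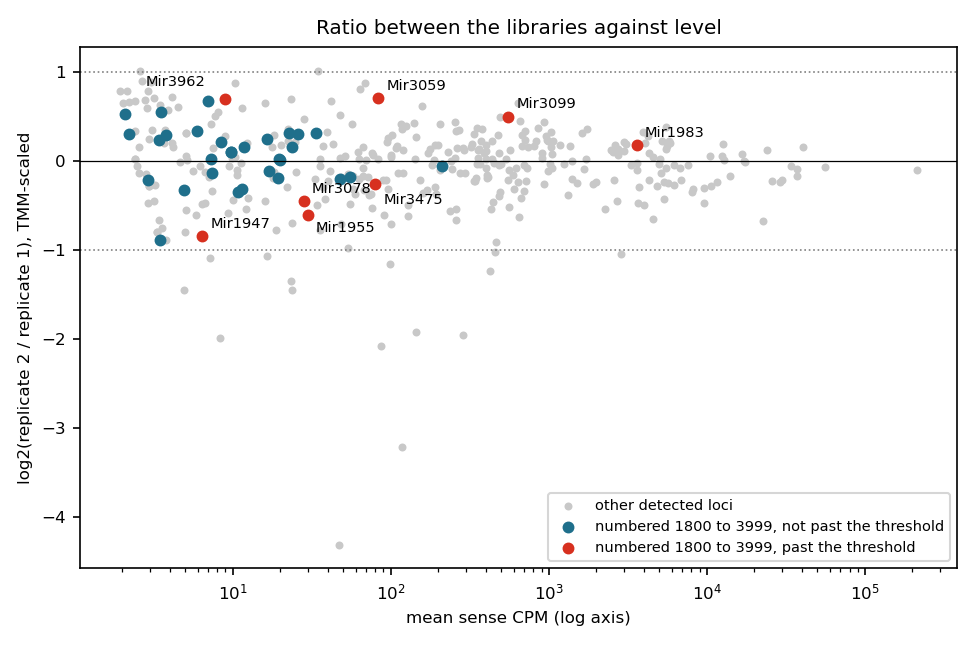
Log2 ratio of replicate 2 to replicate 1 after TMM scaling against mean sense CPM (log x axis) for the 397 detected loci; grey points are other loci, coloured points the 38 later-named ones, with the 8 that passed the exact binomial test named. All 38 lie between the dotted lines at 2-fold in either direction.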

How the data were processed

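MicroRNA libraries of 2 midbrain replicates were used, in 1 group taken from the tissue label. The authors deposited raw read counts per miRNA gene for both strands, the annotated strand and the opposite strand, on assembly mm10 with annotation M4, per the labels and the text deposited beside the counts. The aligner and the counter were not given in the sources used here. Classes of reads outside genes were left out of totals (unmapped, 19.0% and 18.5% of all reads in replicates 1 and 2; in several places, 36.2% and 36.9%; in no miRNA gene, 3.10% and 2.17%). Symbols, introns and hairpins came from GENCODE M21 by gene identifier (1894 of 1973 matched); RefSeq hairpins matched 106 of the 130 loci and mature sequences 115. Loci at 1 or both intron ends have hairpin ends within 10 nt of a splice site. A hairpin was placed in an exon when it had no fewer bases inside exons than outside. Ratios used edgeR 4.0.16 TMM totals and the binomial test of scipy 1.17.1, tested on simulated data; folding used ViennaRNA 2.7.2. With 1 group no glmQLFTest was possible.

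The rule for the loci uses no measured value, but the number range and the lists were chosen with earlier results of these data known; number ranges, tRNA overlap, promoter letters, neighbours, shared stretches and the exon rule were added after the files were seen. Named were all loci with at least 10 reads in each library or in 1 library, and those next to that threshold. Mature sequences were shown for the 8 highest loci with an entry and for those sharing a seed with a detected locus, mostly 1 arm each; Mir3962, the hairpins and the matching sequences of other miRNAs were added after their values were seen. Alternatives were other minimums, the unstranded count, other totals, DESeq2 1.42.0 size factors, other distances and stretches, and each replicate left out.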

Additional observations from a re-analysis of the deposited data

Results flagged for a closer look

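The opposite strand of Mir3074-1 held 85 reads in replicate 1 and 58 reads in replicate 2, above the limit of 3 reads that a count of 0 allows. These reads lie outside the sense counts used for levels. They equalled 11.6 and 14.6 CPM of the sense totals, and Mir24-1 is annotated on that strand. That strand shares 30 nt with the Mir24-2 hairpin, so reads there can be undercounted.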

How the results depend on the processing

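The count of 38 detected loci became 11 with a minimum of 100 reads and 81 with at least 1 read in either library; with each replicate left out it was 38 to 49, and the 3-read, 1 CPM, either-library and unstranded settings stayed within 1.5 times. The share of sense reads (0.505%) became 0.643% without the highest locus of the table in the total, 0.208% of all tallied reads and 0.146% without Mir1983, an alternative chosen after seeing the data; each replicate left out gave 0.458% to 0.552%. The median log2(CPM + 1) of detected loci, 3.66, became 3.55 with a pseudocount of 0.1, 0.54 over all 130 loci, 5.82 with a minimum of 100 reads, 3.63 with unstranded counts, 3.64 without loci that have a copy, and 3.71 with either replicate left out (3.706 to 3.709). Loci passing the binomial test between libraries fell from 8 to 4 with a minimum of 100 reads, and detected loci with a host from 33 to 9; each replicate left out gave 33 to 42 with a host. Loci with a copy fell from 20 to 11 with a stretch of 25 nt. Of single levels, 0 moved by more than 1.5 times under any setting. Leaving out a replicate allows no comparison of the libraries. No paired analysis was possible because there is 1 group. Depth limits the set: 17 of 38 detected loci had under 10 CPM.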
